A study of Homo sapiens with 12 samples.

Results

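The matrix metalloproteinases (MMP), the secreted ADAMTS proteases and their tissue inhibitors (TIMP) were examined in head and neck squamous cell carcinoma cells that had become resistant to ERBB inhibitors. Members were taken by symbol (MMP, ADAMTS or TIMP followed by a number), a rule set with earlier results of these data known. It gave 46 protein-coding genes of 58051 in the deposited count tables: 23 MMP, 19 ADAMTS and 4 TIMP genes. RNA was sequenced from 12 libraries in 6 groups, with 2 biological replicates in each. FaDu is a hypopharyngeal carcinoma line and Cal27 a carcinoma line from the tongue, and all groups carry the label WT for genotype and share a single batch label. In both lines, the parental cells were compared with cells selected in rising doses of afatinib, a pan-ERBB inhibitor (AfaR), and with cells selected in rising doses of erlotinib, an EGFR inhibitor (ErlR). Each resistant model is a single selected population, so the replicates measure the spread of that population and not the spread between independent selections. According to the study's methods, resistant cells were kept under drug and then grown without it before experiments, while parental cells were not selected.

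MMPs and ADAMTS proteases are zinc-dependent enzymes, made as inactive proenzymes, that cut collagens, proteoglycans and other matrix proteins, and most are secreted or held at the cell surface. The TIMPs bind the active site of these enzymes, and TIMP2 also takes part in the activation of pro-MMP2 by the membrane protease MMP14. Several MMP genes sit side by side on chromosome 11, and in epithelial tumors many of them are known to respond to growth factor signaling through AP-1, the dimer of FOS and JUN proteins.

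The chromosome 11 cluster ran from 102520508 to 102955732 (GRCh38), from MMP7 to MMP13, and held 9 members: MMP7, MMP20, MMP27, MMP8, MMP10, MMP1, MMP3, MMP12 and MMP13. The 250 bases upstream of the annotated start of 2 of its genes are printed because they fell together in both resistant FaDu models, and those of ADAMTS14 and TIMP3, which lie outside the cluster, because they rose in Cal27 AfaR. The sequences are those of RefSeq (GRCh38.p14), which had an entry for 27 of the 46 members. Capitals mark the letters TGAGTCA, the AP-1 consensus, searched on both strands, and TATAAA, the TATA box, searched on the strand of the gene; these motifs do not overlap each other.
MMP7 (chr11:102530748-102530997, minus strand): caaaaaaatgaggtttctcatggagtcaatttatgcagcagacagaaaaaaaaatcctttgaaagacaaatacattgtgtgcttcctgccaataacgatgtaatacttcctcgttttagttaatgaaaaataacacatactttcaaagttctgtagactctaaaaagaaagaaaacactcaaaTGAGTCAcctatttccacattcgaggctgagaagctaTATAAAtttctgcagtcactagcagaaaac
MMP10 (chr11:102780629-102780878, minus strand): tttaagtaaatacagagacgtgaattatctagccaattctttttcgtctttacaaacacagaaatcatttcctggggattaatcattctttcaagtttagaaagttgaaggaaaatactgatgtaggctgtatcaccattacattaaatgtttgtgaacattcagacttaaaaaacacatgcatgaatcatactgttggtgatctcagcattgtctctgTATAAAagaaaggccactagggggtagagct
ADAMTS14 (chr10:70672256-70672505, plus strand): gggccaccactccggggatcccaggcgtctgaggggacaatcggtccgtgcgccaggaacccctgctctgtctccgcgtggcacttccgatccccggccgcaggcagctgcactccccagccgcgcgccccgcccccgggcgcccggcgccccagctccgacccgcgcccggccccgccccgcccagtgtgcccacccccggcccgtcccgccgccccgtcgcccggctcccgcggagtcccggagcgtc
TIMP3 (chr22:32801455-32801704, plus strand): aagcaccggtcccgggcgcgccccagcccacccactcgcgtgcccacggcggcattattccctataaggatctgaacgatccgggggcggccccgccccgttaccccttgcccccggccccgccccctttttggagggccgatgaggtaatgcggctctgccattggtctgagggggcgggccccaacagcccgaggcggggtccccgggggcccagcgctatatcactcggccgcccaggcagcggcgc
In MMP7, TGAGTCA began 67 bases and TATAAA 30 bases before the start. In MMP10, TATAAA began 31 bases before the start and TGAGTCA was not found in the window. The windows of MMP7 and MMP10 had a GC content of 33.6% and 34.4%, those of ADAMTS14 and TIMP3 of 80.4% and 72.4%, and the median over all 35116 promoter windows of this length was 58.0%. TATAAA was found in 4 of the 5 cluster members with an entry (MMP7, MMP8, MMP10 and MMP20, not MMP27) and in 2 of the 23 other member windows (MMP21 and MMP26), against 6.80% of all windows. It began farther from the start in MMP8 (110 bases), MMP20 (72) and MMP21 (92), and 28 bases before it in MMP26. TGAGTCA was found in 1 of 28 member windows, that of MMP7, against 4.20% of all windows. The cluster genes MMP1, MMP3, MMP12 and MMP13 had no entry, so their windows were not searched, although MMP13 also fell in both resistant FaDu models. A match describes letters and not a bound site.

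Gene counts per library ranged from 16334937 to 23399259, and the 46 members together took 0.0397% to 0.156% of them. Levels are given as counts per 1e+06 counts of a library (CPM) on one scale for all 12 libraries, and levels of different genes are compared as CPM per kilobase of exon. The 8 squamous epithelial markers (KRT5, KRT14, KRT17, KRT6A, TP63, EPCAM, CDH1 and SFN) averaged at least 1 CPM in every group. Their summed level was 3887 and 5022 CPM in parental Cal27 and 880 and 979 CPM in Cal27 AfaR. There 7 of the 8 were called lower, beside 8.06% of all genes. The median log2 fold change of the 8 was -2.79, and that of KRT14 was -7.24. The summed level of 8 fibroblast markers was 30.1 and 41.7 CPM in parental Cal27, 284 and 291 CPM in Cal27 AfaR and 5.30 to 10.4 CPM in Cal27 ErlR. Of the 4 fibroblast markers tested in Cal27, 2 were called higher in AfaR and 0 lower, beside 11.5% and 8.06% of all genes. These were COL1A1 and PDGFRB, with log2 fold changes of 3.15 and 2.91, while 1 of the 4 had a negative change. DCN, FAP and PDGFRA did not exceed 0.116 CPM in either Cal27 AfaR library. The part of these marker changes in the Cal27 AfaR results was not tested. In bulk RNA, fewer cells of a type and less RNA per cell cannot be told apart.

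With all libraries of a line in the fit, members were called higher more often than lower in the afatinib-resistant cells. They were called lower more often than higher in the erlotinib-resistant cells. Calls over all genes leaned the same way except in FaDu ErlR. Of those calls, 87.2% were higher in FaDu AfaR, 58.9% in Cal27 AfaR, 26.4% in Cal27 ErlR and 75.4% in FaDu ErlR. A gene was called at an adjusted p under 0.05 with a log2 fold change over 1 in size (edgeR quasi-likelihood test over all genes tested, SE being the standard error of the log2 fold change). In FaDu AfaR, 8 of the 28 members tested rose and 4 fell, beside 6.48% and 0.954% of all 15092 genes. In FaDu ErlR, 1 rose and 3 fell, beside 1.54% and 0.504%. These balances depended on the libraries and the scaling: without FaDu parental replicate 1, FaDu AfaR had 2 higher and 3 lower, FaDu ErlR had 1 and 1 without either parental replicate and 6 and 4 when scaled by the spike-ins. In Cal27 AfaR, 18 of the 31 members tested rose and 2 fell, beside 11.5% and 8.06% of all 15269 genes. In Cal27 ErlR, 4 rose and 7 fell, beside 3.56% and 9.92%, or 6 and 6 without parental replicate 1. The median log2 fold change of the tested members was 0.30 and 0.02 in FaDu AfaR and ErlR and 1.96 and -0.83 in Cal27 AfaR and ErlR, while the median over all genes tested was -0.028 in Cal27 ErlR and closer to 0 in the other models. Of the members tested in Cal27, 8 passed the expression filter only through their level in AfaR, which favors a higher level there. They were MMP19, ADAMTS2, ADAMTS7, ADAMTS9, ADAMTS13, ADAMTS14, ADAMTS15 and TIMP4. Among the other 23, 11 rose and 2 fell in AfaR, with a median of 0.69. AfaR and ErlR were compared with the same parental libraries within a line, so their values are not independent.

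**Figure D1:**
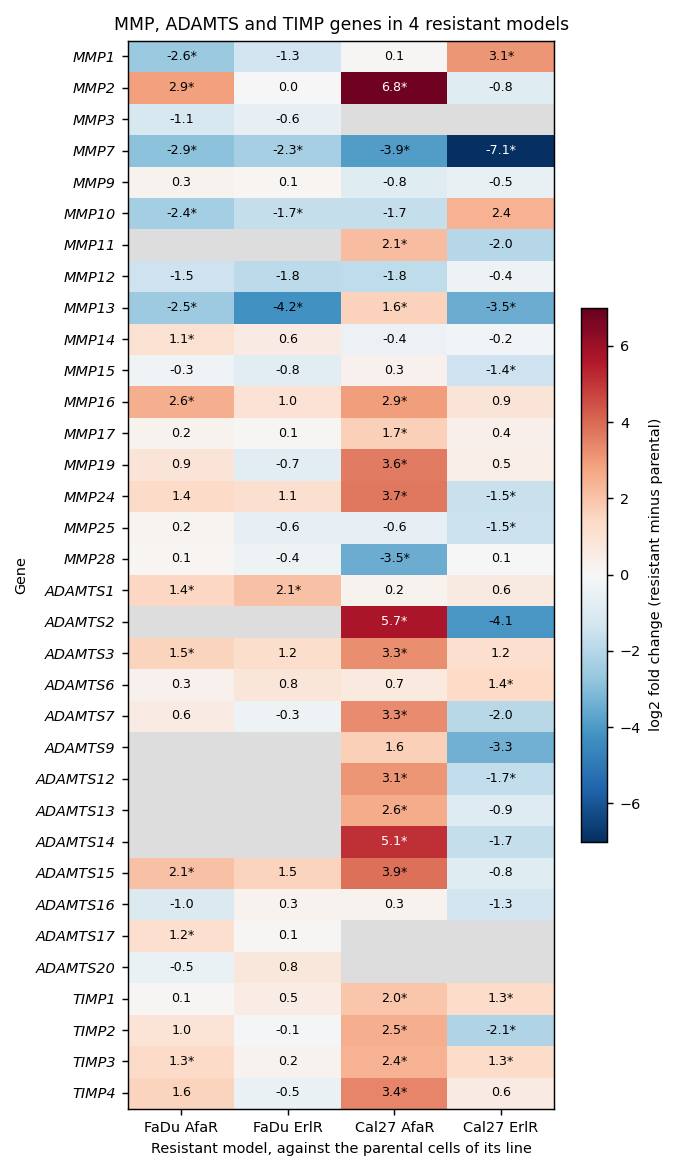
Log2 fold change of each tested member (rows) in the 4 resistant models against their parental line (columns), as a color scale with the value in each cell, with an asterisk on called genes and grey for members not tested in that line. Cal27 AfaR holds the most calls, 18 higher and 2 lower, and MMP7 is lower in every column.

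MMP7 was the only member called in the same direction in all 4 models. The members called higher in both AfaR models were MMP2, MMP16, ADAMTS3, ADAMTS15 and TIMP3, which made up 62.5% of the 8 raised in FaDu AfaR and 27.8% of the 18 raised in Cal27 AfaR. For all genes, the shared set of 338 made up 34.6% and 19.2% of the raised genes. Of the 18, 7 passed the Cal27 filter only through AfaR, ADAMTS15 among them, which favors a rise there. In FaDu AfaR, the calls of MMP16, ADAMTS3, ADAMTS15 and TIMP3 depended on single libraries, as given below. No member was higher in both ErlR models, and MMP7 and MMP13 were lower in both. MMP1, MMP13, MMP24, ADAMTS12 and TIMP2 ran in opposite directions, in that each rose in at least 1 model and fell in another.

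Among the collagenases, which cut fibrillar collagen, MMP13 was lower in 3 models and higher in Cal27 AfaR. MMP13 (chr11:102942995-102955732) stood at 75.4 and 118 CPM in the FaDu parental libraries, 12.4 and 21.0 CPM in AfaR and 2.69 and 7.78 CPM in ErlR. All resistant FaDu libraries were below both parental ones, with a 5.84-fold fall in AfaR (log2 fold change -2.55, SE 0.38, adjusted p = 0.00515) and an 18.6-fold fall in ErlR (log2 fold change -4.22, SE 0.43, adjusted p = 0.00402). In Cal27 it stood at 3.61 and 3.97 CPM in parental cells, 11.3 and 11.6 CPM in AfaR and 0.383 and 0.306 CPM in ErlR. The groups did not overlap, and MMP13 rose 3.02-fold in AfaR (log2 fold change 1.59, SE 0.25, adjusted p = 0.00113) and fell 11.0-fold in ErlR (log2 fold change -3.46, SE 0.35, adjusted p = 0.000274). These calls were kept when any 1 library was left out, although the change in FaDu ErlR was -5.18 without ErlR replicate 2.

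MMP1 (chr11:102789401-102798160), the interstitial collagenase, stood at 36.5 and 44.1 CPM in the FaDu parental libraries, 7.62 and 6.01 CPM in AfaR and 5.18 and 26.9 CPM in ErlR. Both AfaR libraries and both ErlR libraries were below the parental ones, and the 6.00-fold fall in AfaR was called (log2 fold change -2.59, SE 0.55, adjusted p = 0.0164), while the ErlR change was not (log2 fold change -1.34, SE 0.53, adjusted p = 0.181). In Cal27 it stood at 1.69 and 1.58 CPM in parental cells, 2.05 and 1.45 CPM in AfaR and 24.6 and 3.48 CPM in ErlR. The AfaR and parental libraries overlapped (log2 fold change 0.11, SE 0.81, adjusted p = 0.933), and the 8.41-fold rise in ErlR (log2 fold change 3.07, SE 0.75, adjusted p = 0.0152) rested on ErlR replicate 1, without which the log2 fold change was 1.07 (adjusted p = 0.138). Without ErlR replicate 2 it was 3.91. The fall in FaDu AfaR kept its size but missed the threshold without parental replicate 1 (adjusted p = 0.0650), parental replicate 2 (0.0553) or AfaR replicate 2 (0.105). Of the exon bases of MMP1, 7.61% are shared with WTAPP1, so a small part of its reads could belong to that gene.

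MMP7 (chr11:102520508-102530750), or matrilysin, the small MMP that lacks the hemopexin domain and is made by epithelial cells, was more abundant in parental Cal27 than in parental FaDu cells. Its FaDu levels were 4.32 and 4.73 CPM in parental cells, 0.485 and 0.741 CPM in AfaR and 1.02 and 0.785 CPM in ErlR. The parental libraries lay above all 4 resistant ones, with log2 fold changes of -2.88 in AfaR (SE 0.37, adjusted p = 0.00315) and -2.33 in ErlR (SE 0.37, adjusted p = 0.0168). Its Cal27 levels were 29.8 and 61.6 CPM in parental cells, 3.24 and 2.73 CPM in AfaR and 0.383 and 0.306 CPM in ErlR. The parental libraries differed from each other by more than the resistant pairs did, yet both lay far above the rest: MMP7 fell 15.2-fold in AfaR (log2 fold change -3.93, SE 0.35, adjusted p = 4.46e-05) and 133-fold in ErlR (log2 fold change -7.05, SE 0.47, adjusted p = 5.5e-05). Without Cal27 parental replicate 2 these changes were -3.31 and -6.41, still called. In FaDu ErlR the call was lost without parental replicate 1 (adjusted p = 0.0782), parental replicate 2 (0.0956) or ErlR replicate 2 (0.0895), with log2 fold changes of -2.39, -2.26 and -2.15.

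Of the stromelysins in the cluster, which degrade proteoglycans and activate other proenzymes, MMP10 fell in both FaDu models. MMP10 (chr11:102770502-102780628) stood at 13.5 and 11.8 CPM in FaDu parental cells, 2.77 and 2.14 CPM in AfaR and 2.62 and 5.30 CPM in ErlR. All resistant libraries were below the parental ones, 5.24-fold in AfaR (log2 fold change -2.39, SE 0.33, adjusted p = 0.00410) and 3.23-fold in ErlR (log2 fold change -1.69, SE 0.33, adjusted p = 0.0271). The call in ErlR was lost without parental replicate 1 (adjusted p = 0.147), parental replicate 2 (0.103) or ErlR replicate 1 (0.0607), and the log2 fold change was -2.28 without ErlR replicate 2 and -1.27 without ErlR replicate 1. In Cal27, MMP10 stood at 1.05 and 0.933 CPM in parental cells, 0.216 and 0.406 CPM in AfaR and 10.1 and 0.978 CPM in ErlR, and neither change was called, the ErlR libraries overlapping the parental ones (log2 fold change -1.66, SE 1.11, adjusted p = 0.270 in AfaR; log2 fold change 2.44, SE 0.86, adjusted p = 0.0607 in ErlR). MMP3 did not exceed 0.981 CPM in any library, and was tested in FaDu only, where neither change was called. MMP12, known as macrophage elastase, stood at 3.59 and 4.94 CPM in FaDu parental cells, 2.18 and 0.987 CPM in AfaR and 0.511 and 1.90 CPM in ErlR, with log2 fold changes of -1.46 (adjusted p = 0.0873) and -1.84 (adjusted p = 0.104) that were not called.

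Read as a group by position, tested genes of the cluster fell in the resistant FaDu cells and none of them rose. In FaDu AfaR, 4 of its 6 tested members fell and none rose, beside 0.954% of all genes lower, with a median log2 fold change of -2.47, while 8 of the 22 tested members outside the cluster rose and none fell, with a median of 0.95. In FaDu ErlR, 3 of 6 fell, beside 0.504% of all genes, with a median of -1.76, and 1 of the 22 others rose, with a median of 0.17. MMP3 passed the filter only through its FaDu parental level, which favors a lower level in the resistant cells, and it was not called. Its ErlR replicate 2, at 0.981 CPM, still lay above both parental libraries, at 0.680 and 0.780 CPM. The medians without MMP3 were -2.55 and -1.84. In Cal27 AfaR, 1 of 5 rose and 1 fell (median -1.66), beside 17 higher and 1 lower of the 26 others (median 2.48). Those 26 include the 8 that passed the filter only through AfaR, and of the 18 without them 10 rose and 1 fell (median 1.82). In Cal27 ErlR, 1 of 5 rose and 2 fell (median -0.36), beside 3 higher and 5 lower of the 26 others (median -0.83). Of all genes, 11.5% rose and 8.06% fell in Cal27 AfaR, and 3.56% rose and 9.92% fell in Cal27 ErlR. The ErlR replicates differed across the cluster. In FaDu ErlR, replicate 2 was the higher one for 5 of the 6 genes, with summed levels of 12.0 and 43.7 CPM for replicates 1 and 2, and in Cal27 ErlR replicate 1 was the higher one for all 5 genes, with summed levels of 36.5 and 5.38 CPM.

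**Figure D2:**
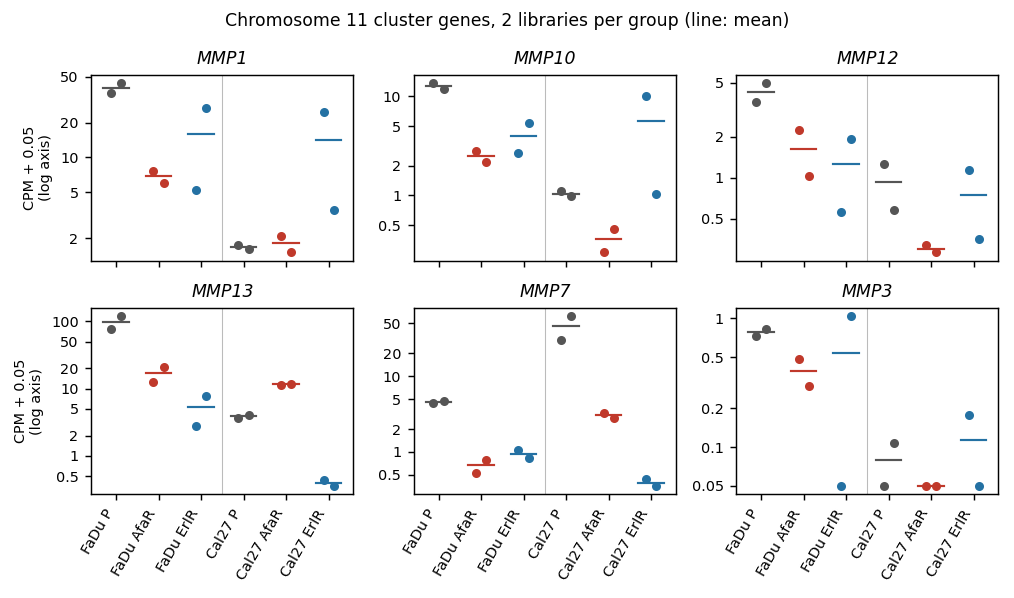
Levels of MMP1, MMP10, MMP12, MMP13, MMP7 and MMP3 in the 12 libraries, as CPM + 0.05 on a log axis, with a point for each library, a line at the group mean, and parental in grey, AfaR in red and ErlR in blue. MMP13 reaches 118 CPM in a FaDu parental library and 0.306 CPM in a Cal27 ErlR library, and the ErlR pairs are widely spread for MMP1, at 5.18 and 26.9 CPM in FaDu and 24.6 and 3.48 CPM in Cal27.

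MMP2, the gelatinase that cuts denatured collagen and basement membrane collagen, had the largest rise of any member over a parental line. MMP2 (chr16:55389700-55506691) stood at 0.932 and 0.933 CPM in Cal27 parental cells, 127 and 82.1 CPM in AfaR and 0.639 and 0.428 CPM in ErlR. The AfaR libraries were 111-fold higher (log2 fold change 6.80, SE 0.30, adjusted p = 2.2e-06), and both ErlR libraries were below the parental ones without a call (log2 fold change -0.83, SE 0.47, adjusted p = 0.220). In FaDu it stood at 1.26 and 2.70 CPM in parental cells, 11.4 and 17.9 CPM in AfaR and 2.11 and 1.77 CPM in ErlR. The AfaR libraries again lay above all others, 7.30-fold over parental (log2 fold change 2.87, SE 0.37, adjusted p = 0.00316), or 3.51 on the log2 scale without parental replicate 2, while the ErlR libraries lay between the parental ones. MMP9, the other gelatinase, ranged from 4.03 to 13.0 CPM over the 12 libraries and was called in no model.

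MMP14 (MT1-MMP), the membrane protease that cuts collagen and activates pro-MMP2, was the most abundant MMP in every library, at 34.1% to 78.0% of the summed MMP level per kilobase. MMP14 (chr14:22836560-22849041) stood at 216 and 211 CPM in FaDu parental cells, 427 and 488 CPM in AfaR and 245 and 388 CPM in ErlR. Both AfaR libraries exceeded both parental ones (log2 fold change 1.08, SE 0.19, adjusted p = 0.00813), and the smaller difference in ErlR was not called (log2 fold change 0.56, SE 0.19, adjusted p = 0.124). In Cal27, MMP14 stood at 240.2 and 259.7 CPM in parental cells, 208 and 168 CPM in AfaR and 268 and 170.5 CPM in ErlR, and was called in neither model. The FaDu AfaR call was lost without parental replicate 1 (adjusted p = 0.0667) and without AfaR replicate 2 (log2 fold change 0.98).

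The other membrane-type members changed mostly in Cal27. MMP16 (MT3-MMP) rose in both AfaR models, from 0.534 and 1.30 CPM to 6.99 and 3.95 CPM in FaDu (log2 fold change 2.56, SE 0.47, adjusted p = 0.0100) and from 2.16 and 1.63 CPM to 13.6 and 15.3 CPM in Cal27 (log2 fold change 2.93, SE 0.27, adjusted p = 5.39e-05). Its ErlR libraries held 2.11 and 1.63 CPM in FaDu and 3.26 and 3.85 CPM in Cal27 (log2 fold change 0.88, adjusted p = 0.0429), under the fold needed for a call. In both lines the AfaR libraries were above all others, but in FaDu the call was lost without parental replicate 1 (2.04, adjusted p = 0.0766), and the change was 3.31 without parental replicate 2. MMP24 (MT5-MMP) stood at 0.757 and 0.70 CPM in Cal27 parental cells, 9.72 and 9.29 CPM in AfaR and 0.256 and 0.244 CPM in ErlR. It rose 12.9-fold in AfaR (log2 fold change 3.69, SE 0.32, adjusted p = 4.16e-05) and fell 2.91-fold in ErlR (log2 fold change -1.54, SE 0.47, adjusted p = 0.0371), the groups not overlapping. MMP24 did not exceed 0.576 CPM in FaDu, where it was not called.

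MMP17, an MMP held at the membrane by a GPI anchor, stood at 2.56 and 2.10 CPM in Cal27 parental cells, 7.40 and 7.60 CPM in AfaR and 2.62 and 3.54 CPM in ErlR. Its AfaR libraries lay above the other 4 (log2 fold change 1.68, SE 0.29, adjusted p = 0.00200), and its FaDu groups overlapped, at 3.54 and 4.99 CPM in parental cells, 3.74 and 6.34 CPM in AfaR and 3.77 and 5.36 CPM in ErlR. MMP15 (MT2-MMP) stood at 42.9 and 61.3 CPM in Cal27 parental cells, 73.5 and 53.7 CPM in AfaR and 18.0 and 21.3 CPM in ErlR. Only the ErlR libraries stood clear of the parental pair (log2 fold change -1.43, SE 0.22, adjusted p = 0.00185). The FaDu levels of MMP15 were 49.5 and 46.4 CPM, 39.2 and 42.0 CPM and 25.1 and 31.0 CPM in parental, AfaR and ErlR cells, and the ErlR difference passed the adjusted p of 0.05 but not the fold (log2 fold change -0.79, adjusted p = 0.0223). MMP25, the other GPI-anchored member, stood at 1.28 and 1.58 CPM in Cal27 parental cells, 1.08 and 0.813 CPM in AfaR and 0.511 and 0.489 CPM in ErlR (log2 fold change -1.53, SE 0.49, adjusted p = 0.0455 in ErlR). The ErlR calls of MMP24 and MMP25 were both lost when any 1 of the 4 libraries compared was left out, with log2 fold changes from -1.58 to -1.47 for MMP24 and from -1.65 to -1.35 for MMP25. MMP24 and MMP25 also share 21.8% and 32.8% of their exon bases with the genes MMP24OS and MMP25-AS1, and reads of such pairs cannot be told apart unless strand was used in counting, which is not given in the sources used here.

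MMP11, MMP19 and MMP28, which are secreted enzymes outside the cluster, were called in Cal27 AfaR only, and FaDu levels of MMP11 and MMP19 stayed under 1 CPM. MMP19 stood at 0.408 and 0.292 CPM in Cal27 parental cells, 4.00 and 4.70 CPM in AfaR and 0.447 and 0.550 CPM in ErlR, a 12.2-fold rise in AfaR (log2 fold change 3.61, SE 0.44, adjusted p = 0.000275). MMP11, the stromelysin that furin activates inside the cell, stood at 0.874 and 1.11 CPM in parental cells, 6.53 and 2.26 CPM in AfaR and 0 and 0.489 CPM in ErlR (log2 fold change 2.15, SE 0.70, adjusted p = 0.0371 in AfaR). The AfaR replicates of MMP11 differed widely, and its call was lost without AfaR replicate 1 (log2 fold change 1.19), parental replicate 1 (adjusted p = 0.100) or parental replicate 2 (0.0618). MMP28, or epilysin, an enzyme of keratinocytes, stood at 3.38 and 2.98 CPM in parental cells, 0.378 and 0.174 CPM in AfaR and 4.09 and 2.63 CPM in ErlR. It fell 11.1-fold in AfaR (log2 fold change -3.47, SE 0.50, adjusted p = 0.000703), or -4.13 on the log2 scale without AfaR replicate 1, and its FaDu groups overlapped, between 1.12 and 2.88 CPM.

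**Figure D3:**
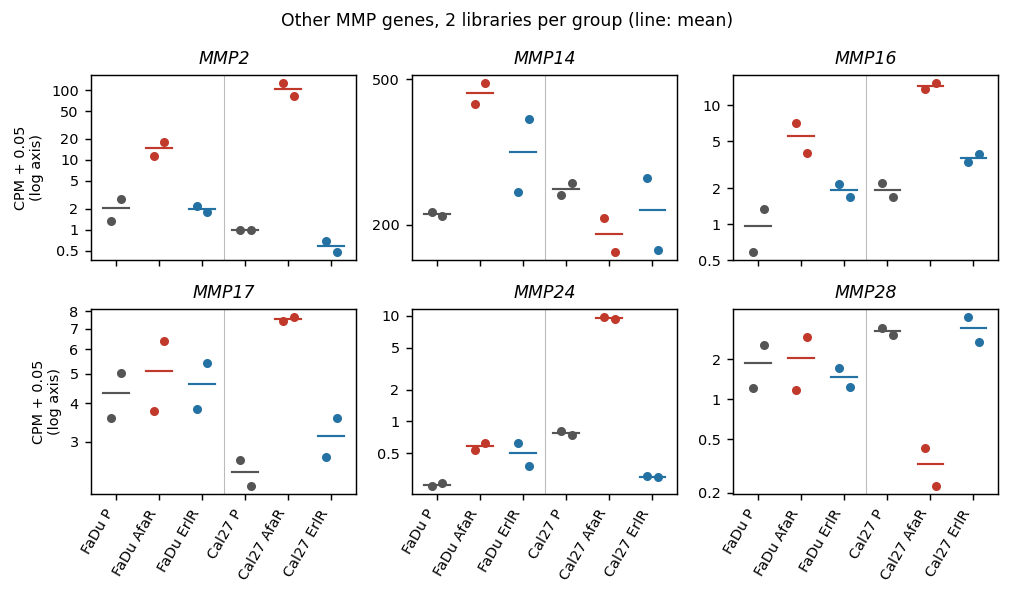
Levels of MMP2, MMP14, MMP16, MMP17, MMP24 and MMP28 in the 12 libraries, as CPM + 0.05 on a log axis, with a point for each library, a line at the group mean, and parental in grey, AfaR in red and ErlR in blue. The Cal27 AfaR libraries of MMP2 stand at 127 and 82.1 CPM beside 0.932 and 0.933 CPM in parental cells, and those of MMP28 lie below all other Cal27 libraries.

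No ADAMTS gene fell in an AfaR model. In FaDu AfaR, 4 of the 8 tested rose, beside 6.48% of all genes, with a median log2 fold change of 0.88. In Cal27 AfaR, 7 of the 11 tested rose, beside 11.5% of all genes, with a median of 3.09. Of these 11, 6 passed the filter only through their level in Cal27 AfaR and supplied 5 of the calls, while of the other 5, ADAMTS3 and ADAMTS12 rose and the median was 0.69. In FaDu ErlR, 1 of 8 rose, beside 1.54% of all genes. In Cal27 ErlR, 1 of 11 rose, beside 3.56%, and 1 fell (9.09%), near the 9.92% of all genes, with a median of -1.34. The procollagen N-propeptidases ADAMTS2, ADAMTS3 and ADAMTS14, which trim the amino-terminal propeptide of fibrillar procollagens, all rose in Cal27 AfaR. ADAMTS14 (chr10:70672506-70762441) stood at 0.874 and 0.350 CPM in Cal27 parental cells, 27.8 and 14.3 CPM in AfaR and 0.256 and 0.122 CPM in ErlR (log2 fold change 5.09, SE 0.48, adjusted p = 6.25e-05, and 5.89 without parental replicate 1). ADAMTS2 stood at 0.0583 and 0.175 CPM in parental cells, 7.51 and 5.22 CPM in AfaR and 0 in both ErlR libraries (log2 fold change 5.69, SE 0.57, adjusted p = 0.000168 in AfaR, and 6.61 without parental replicate 2). Both genes were far above the other Cal27 groups in AfaR and near the limit of detection in FaDu, where no library of either exceeded 0.206 CPM.

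ADAMTS3 rose in both AfaR models. In Cal27 it stood at 0.757 and 0.583 CPM in parental cells, 7.51 and 5.46 CPM in AfaR and 1.34 and 1.77 CPM in ErlR (log2 fold change 3.26, SE 0.38, adjusted p = 0.000235 in AfaR). In FaDu it stood at 1.17 and 0.780 CPM in parental cells, 2.28 and 3.50 CPM in AfaR and 3.13 and 1.5 CPM in ErlR (log2 fold change 1.55, SE 0.46, adjusted p = 0.0456 in AfaR). Every resistant library was above the parental pair in both lines, but the FaDu AfaR call was lost when any 1 of the 4 libraries was left out, with log2 fold changes from 1.2 without AfaR replicate 2 to 1.86 without parental replicate 1.

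Among the ADAMTS proteases that cut versican and aggrecan, ADAMTS1 was the most abundant per kilobase and rose in both FaDu models. ADAMTS1 stood at 8.35 and 4.31 CPM in FaDu parental cells, 16.1 and 19.0 CPM in AfaR and 26.3 and 27.5 CPM in ErlR. All 4 resistant libraries were above the parental ones, with log2 fold changes of 1.45 in AfaR (SE 0.26, adjusted p = 0.00998) and 2.07 in ErlR (SE 0.27, adjusted p = 0.00935). Without AfaR replicate 2 the AfaR call was lost (adjusted p = 0.0536). Cal27 held more of it, 102 and 61.9 CPM in parental cells, 86.5 and 107 CPM in AfaR and 148 and 112 CPM in ErlR, without a call. ADAMTS15 stood at 0.524 and 0.583 CPM in Cal27 parental cells, 6.80 and 9.69 CPM in AfaR and 0.256 and 0.367 CPM in ErlR (log2 fold change 3.88, SE 0.38, adjusted p = 8.51e-05 in AfaR). In FaDu it stood at 0.583 and 0.676 CPM in parental cells, 3.49 and 1.89 CPM in AfaR and 1.15 and 2.55 CPM in ErlR (log2 fold change 2.06, SE 0.51, adjusted p = 0.0264 in AfaR). All resistant FaDu libraries were above the parental pair, but the AfaR call of ADAMTS15 was lost without parental replicate 1 (adjusted p = 0.164), parental replicate 2 (0.0951) or AfaR replicate 1 (0.107). ADAMTS9 was called in no model, with at most 1.24 CPM in any library.

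ADAMTS12 and ADAMTS7, which cut the cartilage oligomeric matrix protein, both rose in Cal27 AfaR. ADAMTS12 (chr5:33523535-33892019) stood at 5.94 and 7.47 CPM in Cal27 parental cells, 57.9 and 56.1 CPM in AfaR and 1.53 and 2.51 CPM in ErlR. The groups did not overlap, with an 8.50-fold rise in AfaR (log2 fold change 3.09, SE 0.21, adjusted p = 1.14e-05) and a 3.36-fold fall in ErlR (log2 fold change -1.75, SE 0.25, adjusted p = 0.00144). FaDu libraries held at most 0.312 CPM of it, and it was not tested there. ADAMTS7 stood at 0.524 and 0.467 CPM in Cal27 parental cells, 5.94 and 4.00 CPM in AfaR and 0.128 and 0.122 CPM in ErlR, with a 9.93-fold rise in AfaR (log2 fold change 3.31, SE 0.43, adjusted p = 0.000391) and no call in ErlR (log2 fold change -1.95, SE 0.67, adjusted p = 0.0563).

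Of the remaining ADAMTS genes, ADAMTS13, the protease of von Willebrand factor, stood at 0.349 and 0.350 CPM in Cal27 parental cells, 3.02 and 1.28 CPM in AfaR and 0.256 and 0.122 CPM in ErlR (log2 fold change 2.6, SE 0.61, adjusted p = 0.00883 in AfaR). That call was lost without AfaR replicate 1 (log2 fold change 1.85, adjusted p = 0.124). ADAMTS6, a protease linked to fibrillin microfibrils, stood at 15.3 and 9.04 CPM in Cal27 parental cells, 19.9 and 19.3 CPM in AfaR and 38.7 and 26.8 CPM in ErlR. Both resistant pairs were above the parental pair, and the rise in ErlR was called (log2 fold change 1.40, SE 0.26, adjusted p = 0.00450), whereas that in AfaR was not (log2 fold change 0.69, SE 0.26, adjusted p = 0.0639). ADAMTS17, also linked to microfibrils, stood at 3.40 and 2.39 CPM in FaDu parental cells, 7.52 and 6.01 CPM in AfaR and 3.45 and 2.75 CPM in ErlR (log2 fold change 1.2, SE 0.30, adjusted p = 0.0260 in AfaR). Its AfaR libraries were above the other FaDu libraries, but the call was lost when any 1 of the 4 libraries was left out, with log2 fold changes from 0.97 to 1.47.

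**Figure D4:**
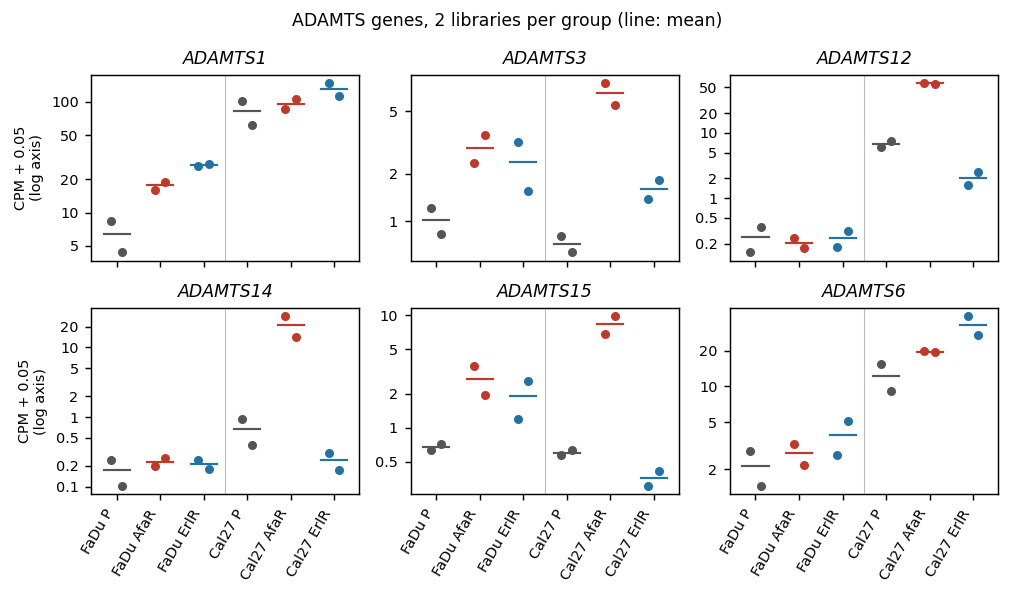
Levels of ADAMTS1, ADAMTS3, ADAMTS12, ADAMTS14, ADAMTS15 and ADAMTS6 in the 12 libraries, as CPM + 0.05 on a log axis, with a point for each library, a line at the group mean, and parental in grey, AfaR in red and ErlR in blue. ADAMTS12 stands at 57.9 and 56.1 CPM in Cal27 AfaR and at no more than 0.312 CPM in FaDu, and ADAMTS14 at 27.8 and 14.3 CPM in Cal27 AfaR.

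All 4 TIMP genes rose in Cal27 AfaR, beside 11.5% of all genes, but TIMP4 passed the filter only through its level there. TIMP2 (chr17:78852977-78925387) stood at 81.6 and 95.5 CPM in Cal27 parental cells, 563 and 469.7 CPM in AfaR and 16.0 and 26.5 CPM in ErlR. It rose 5.84-fold in AfaR (log2 fold change 2.55, SE 0.22, adjusted p = 4.14e-05) and fell 4.24-fold in ErlR (log2 fold change -2.08, SE 0.23, adjusted p = 0.00039), and the groups did not overlap. In FaDu, TIMP2 stood at 6.51 and 9.72 CPM in parental cells, 13.1 and 19.4 CPM in AfaR and 7.80 and 7.65 CPM in ErlR, and the AfaR difference passed the adjusted p of 0.05 but missed the fold (log2 fold change 0.98, SE 0.26, adjusted p = 0.0306).

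TIMP1 (chrX:47582408-47586789), a weak inhibitor of some membrane-type MMPs such as MMP14, stood at 30.6 and 28.7 CPM in Cal27 parental cells, 117 and 113 CPM in AfaR and 82.3 and 63.9 CPM in ErlR. It rose in both resistant models (log2 fold change 1.96, SE 0.15, adjusted p = 2.24e-05 in AfaR; log2 fold change 1.28, SE 0.15, adjusted p = 0.0006 in ErlR). In FaDu, TIMP1 stood at 49.6 and 47.9 CPM in parental cells, 60.4 and 45.8 CPM in AfaR and 65.8 and 74.1 CPM in ErlR, with no call (log2 fold change 0.10, SE 0.15, adjusted p = 0.656 in AfaR; log2 fold change 0.51, SE 0.15, adjusted p = 0.0907 in ErlR). TIMP3 (chr22:32801705-32863041), which binds to the matrix and also inhibits ADAM17 and several ADAMTS proteases, rose in 3 models. Its levels were 2.04 and 3.27 CPM in Cal27 parental cells, 15.1 and 13.1 CPM in AfaR (log2 fold change 2.41, SE 0.29, adjusted p = 0.000256) and 7.35 and 5.87 CPM in ErlR (log2 fold change 1.29, SE 0.29, adjusted p = 0.0110). In FaDu its levels were 2.14 and 2.91 CPM in parental cells, 5.68 and 7.12 CPM in AfaR (log2 fold change 1.32, SE 0.29, adjusted p = 0.0173) and 3.07 and 2.88 CPM in ErlR (log2 fold change 0.23, SE 0.30, adjusted p = 0.729). The FaDu AfaR call of TIMP3 was lost without parental replicate 1 (log2 fold change 1.11, adjusted p = 0.141) or AfaR replicate 2 (1.15, adjusted p = 0.0912), and the Cal27 ErlR call without ErlR replicate 1 (1.12, adjusted p = 0.0508).

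TIMP4 stood at 0.466 and 0.467 CPM in Cal27 parental cells, 3.08 and 7.20 CPM in AfaR and 0.383 and 1.04 CPM in ErlR, with a rise in AfaR (log2 fold change 3.44, SE 0.59, adjusted p = 0.00187) that was 2.72 without AfaR replicate 2. In FaDu, TIMP4 stood at 0.728 and 1.14 CPM in parental cells, 4.03 and 1.60 CPM in AfaR and 0.511 and 0.850 CPM in ErlR, with no call (log2 fold change 1.56, SE 0.52, adjusted p = 0.0665 in AfaR). Summed per kilobase, the 4 TIMPs came to 35.1 and 36.6 CPM per kb in Cal27 parental cells, 181 and 164 in AfaR and 58.1 and 48.0 in ErlR. TIMP2 made up 41.3% and 46.4% of that sum in parental cells, 55.2% and 50.9% in AfaR and 4.88% and 9.78% in ErlR. The summed MMP level in Cal27 was 88.3 and 108 CPM per kb in parental cells, 106 and 81.6 in AfaR and 90.3 and 50.3 in ErlR, so that its AfaR and parental libraries overlapped while those of the TIMP sum did not. In FaDu, the summed TIMP level was 34.3 and 34.2 CPM per kb in parental cells, 45.2 and 35.7 in AfaR and 45.1 and 50.6 in ErlR. These sums are descriptions and were not tested.

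**Figure D5:**
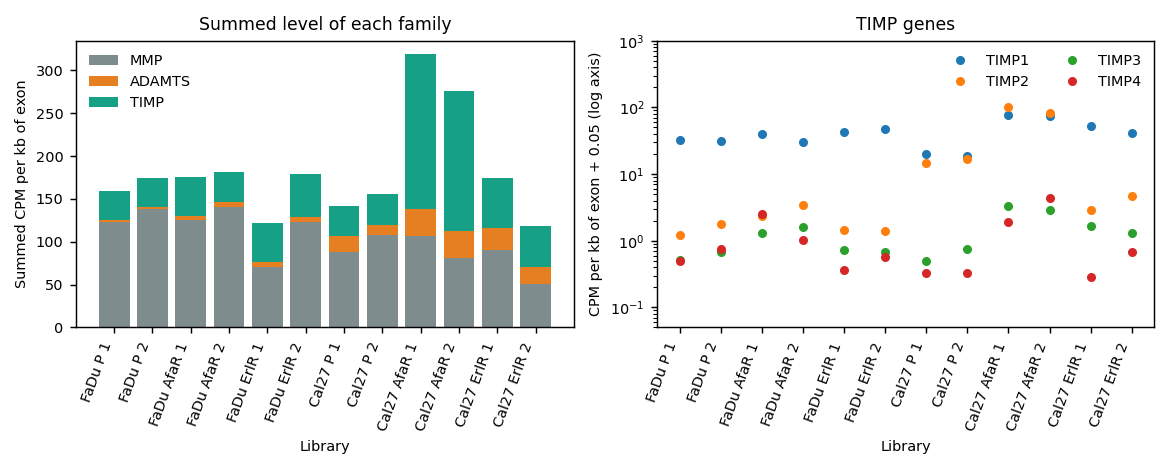
Left, summed level of the MMP, ADAMTS and TIMP genes in each library as stacked bars (CPM per kilobase of exon, from 0); right, level of TIMP1 to TIMP4 in each library (CPM per kilobase + 0.05, log axis). The TIMP part of the bars is 181 and 164 CPM per kb in the Cal27 AfaR libraries and at most 58.1 CPM per kb in the others.

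AfaR and ErlR cells of the same line were also compared directly. In FaDu, 7 of 28 members were higher in AfaR than in ErlR and 0 lower (edgeR quasi-likelihood test), beside 4.45% and 1.5% of all genes tested. The counts were 3 higher and 1 lower when scaled by the spike-ins, which took the share of higher among all called genes from 74.8% to 37.0%, and 1 and 1 without ErlR replicate 1. These were MMP2 (log2 fold change 2.91, SE 0.38, adjusted p = 0.00324), MMP13, MMP16, ADAMTS17, TIMP2, TIMP3 and TIMP4, with log2 differences of 1.06 to 2.03 for the last 6. When each of the 4 libraries compared was left out in turn, the call held in all runs for MMP2 only, and MMP13 ranged from 1.11 without ErlR replicate 1 to 2.62 without ErlR replicate 2, TIMP4 from 1.22 without AfaR replicate 1 to 2.55 without AfaR replicate 2. In Cal27, 21 of 31 were higher in AfaR than in ErlR and 3 lower, beside 18.2% and 8.86%. All 8 members that passed the filter only through Cal27 AfaR, ADAMTS2, ADAMTS14 and ADAMTS7 among them, are in the 21. Passing in this way favors higher values in AfaR, and of the other 23 tested, 13 were higher and 3 lower. The largest differences were in ADAMTS2, with 229 counts in AfaR and 0 in ErlR (at least 68.4-fold, from 3 counts over the group), MMP2 (log2 fold change 7.63, SE 0.32, adjusted p = 1.21e-06), ADAMTS14 (log2 difference 6.78), ADAMTS7 (5.26), MMP24 (5.23) and MMP13 (5.05). ADAMTS9 had 43 counts in AfaR and 1 in ErlR, a ratio of 38.5 (counting interval 6.55 to 1556). The 3 lower members were MMP28 (-3.53), MMP10 (-4.10) and MMP1 (-2.96), of which MMP10 and MMP1 depended on ErlR replicate 1, without which they were -1.62 and -0.96 and not called. Both also missed the threshold without AfaR replicate 1 (adjusted p = 0.0837 and 0.0632), and MMP1 without AfaR replicate 2 (0.0705). Among the higher members, ADAMTS16 was 0.93 without ErlR replicate 1 and TIMP3 0.94 without ErlR replicate 2, neither called. MMP11 was 3.17 without AfaR replicate 1 and 3.18 without ErlR replicate 1, and no value is given without ErlR replicate 2, since the remaining ErlR library held 0 counts.

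Between the parental lines, 9 of the 34 members tested in the fit over all 12 libraries were higher in Cal27 (26.5%) and 6 lower (17.6%), not far from the 19.1% and 12.5% of all 16240 genes. ADAMTS12 (log2 fold change 5.01, SE 0.39, adjusted p = 6.44e-07), ADAMTS1 (log2 fold change 3.69, SE 0.30, adjusted p = 9.16e-07), TIMP2 (log2 fold change 3.45, SE 0.26, adjusted p = 5.3e-07) and MMP7 (log2 fold change 3.33, SE 0.31, adjusted p = 2.83e-06) were higher in Cal27, and so were ADAMTS6, ADAMTS14, MMP24, MMP25 and ADAMTS16, with log2 differences of 1.5 to 2.52. Of the 6 lower in Cal27, 5 belong to the chromosome 11 cluster: MMP13 (log2 fold change -4.67, SE 0.40, adjusted p = 1.37e-06), MMP1 (log2 fold change -4.62, SE 0.85, adjusted p = 0.000563), MMP10 (-3.67), MMP12 (-2.28) and MMP3, with 29 counts in FaDu and 1 in Cal27 (ratio 25.0, counting interval 4.14 to 1020). The sixth was ADAMTS17 (-2.81). ADAMTS12, with 8 counts in parental FaDu, was 4.38 without FaDu replicate 1 and 6.00 without FaDu replicate 2, and MMP7 was 2.72 without Cal27 replicate 2. Leaving out 1 parental library ended the calls of MMP3 and ADAMTS16 in every case, that of MMP12 without Cal27 replicate 2 (-1.80) and that of MMP25 without FaDu replicate 1 (1.30) or Cal27 replicate 2 (1.56). ADAMTS14 lost its call without FaDu replicate 2 (1.61) or Cal27 replicate 1 and ranged from 1.43 without Cal27 parental replicate 1 to 3.38 without FaDu parental replicate 1.

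Whether resistance moved a member by different amounts in the lines was tested as an interaction. The AfaR change was more positive in FaDu for 3 of 34 members and in Cal27 for 10, beside 7.57% and 4.76% of all genes. The ErlR change was more positive in FaDu for 6 and in Cal27 for 2, beside 7.51% and 3.36%. Of the 10, MMP19, ADAMTS7 and ADAMTS14 passed the filter of the Cal27 fit only through AfaR. Of the 6, ADAMTS20 passed that of the FaDu fit only through ErlR. Being high in that group favors these directions. For AfaR, TIMP1 (FaDu minus Cal27 -1.83, SE 0.22, adjusted p = 0.00014), MMP13 (-4.12, SE 0.52, adjusted p = 0.000219) and MMP2 (-3.90, SE 0.52, adjusted p = 0.000298) changed more positively in Cal27, and MMP14 (1.51, SE 0.31, adjusted p = 0.00552) more in FaDu. For ErlR, MMP7 (4.71, SE 0.65, adjusted p = 0.000784) and TIMP2 (1.99, SE 0.37, adjusted p = 0.00357) changed more negatively in Cal27.

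Lists of genes that act with these proteases, also chosen with earlier results of these data known, were read beside them. Of the ADAM sheddases tested, 3 of 7 rose and none fell in FaDu AfaR (6.48% and 0.954% of all genes), and 2 of 8 rose and 2 fell in Cal27 AfaR (11.5% and 8.06%). ADAM12 and ADAM19, membrane-bound relatives of the ADAMTS proteases, rose in FaDu AfaR (log2 fold changes 1.82 and 2.15) and in Cal27 AfaR (3.34 and 2.17). Of the ADAMTS-like genes, 3 of 5 rose in FaDu AfaR and 5 of 7 in Cal27 AfaR, beside 6.48% and 11.5% of all genes, and none fell in either. In Cal27 ErlR 2 of 7 fell, beside 9.92%. ADAMTSL3 and PAPLN, which resemble ADAMTS proteases but lack the protease domain, also rose in FaDu AfaR (2.52 and 1.75) and in Cal27 AfaR (5.61 and 2.52), while PAPLN fell in Cal27 ErlR (-2.43). Among activators of the proenzymes, 2 of 10 tested rose and 1 fell in FaDu AfaR, beside 6.48% and 0.954% of all genes, and none was called in FaDu ErlR. In Cal27 AfaR, none of 11 tested rose and 6 fell, beside the 8.06% of all genes lower there, with KLK7 (-3.91), KLK5 (-2.87), PLAT (-2.84) and ST14 (-2.75) changing most. In Cal27 ErlR, none rose and 5 fell, beside 9.92%, with PCSK5 at -4.91 and PLAT at -3.45.

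Of 6 substrate genes tested, 1 rose in FaDu AfaR and 3 rose in Cal27 AfaR, beside 6.48% and 11.5% of all genes. None was called in FaDu ErlR, and 4 fell in Cal27 ErlR, beside 9.92%. VCAN, the gene of versican, stood at 1.28 and 0.70 CPM in Cal27 parental cells, 58.4 and 48.8 CPM in AfaR and 1.47 and 0.978 CPM in ErlR, a rise in AfaR of 5.75 on the log2 scale. COL5A1 rose in FaDu AfaR (1.92) and Cal27 AfaR (3.43) and fell in Cal27 ErlR (-2.6), and COL1A1 rose in Cal27 AfaR (3.15) and fell in Cal27 ErlR (-2.41). Of 13 AP-1, ETS family and RUNX2 genes, 2 rose and 3 fell in FaDu AfaR, beside 6.48% and 0.954% of all genes, among them JUNB (-1.30) and RUNX2 (1.09), and none was called in FaDu ErlR. In Cal27, 4 rose and 3 fell in AfaR (11.5% and 8.06% of all genes) and 2 rose and 1 fell in ErlR (3.56% and 9.92%). RUNX2 rose in AfaR (2.53) and FOSL1 in ErlR (1.62), and ELF3 fell in both (-2.50 and -3.08).

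The other members gave no call. MMP3, MMP9, MMP12, ADAMTS9, ADAMTS16 and ADAMTS20 were tested in at least 1 line and called in no resistant model. A further 12 members (MMP8, MMP20, MMP21, MMP23B, MMP26, MMP27, ADAMTS4, ADAMTS5, ADAMTS8, ADAMTS10, ADAMTS18 and ADAMTS19) were tested in none, with at most 5 counts in any library, and MMP8, MMP26 and MMP27 had 0 counts in all 12. A count of 0 allows up to 0.123 to 0.196 CPM at these depths, from 3 counts, so that differences below this level were not detectable. MMP23B has a near-identical copy, which makes its counts uncertain. In all, 18 members share exon bases with another gene, of which MMP11 (18.6%), MMP9 (18.4%), MMP19 (17.4%), TIMP4 (10.3%) and TIMP2 (10.0%) come next after MMP25 and MMP24.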

How the data were processed

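PolyA-selected RNA with ERCC spike-ins was sequenced from parental cells of FaDu and Cal27 and from their AfaR and ErlR derivatives. The submitters' processing notes name Trimmomatic 0.36, STAR 2.5.2b, featureCounts of Subread 1.5.2 and GRCh38, and the authors deposited raw gene counts for each library, which were used here. Whether counting used strand is not given in the sources used here. The authors also deposited normalized count tables, which were not used, and no column lacked a sample (0). Symbols came from GENCODE 44, in which 56948 of 58051 gene IDs were found.

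Spike-ins (3.86% to 5.82% of counts) were left out of library sizes. Genes passing filterByExpr were tested in R 4.3.3 with edgeR 4.0.16 (TMM, glmQLFit, glmQLFTest, prior count 0.125) over the 6 libraries of a line, or over all 12 for contrasts between lines, with Benjamini-Hochberg adjustment over all genes tested. SE is the log2 fold change divided by the square root of F. CPM values share one TMM scale over the 12 libraries, whereas fold changes come from the fit of each line, so ratios of printed CPM can differ slightly from the fold changes. Alternatives were DESeq2 1.42.0, other scalings and filters, a replicate block, fits on the 4 libraries compared and leaving out each library. The members and the related lists were chosen with earlier results of these data known. Members called in a resistant model and the TIMPs are given in full, and of each related list at most 4 called genes per comparison. Replicate libraries of a group differed by more than sampling noise. The labels call them biological replicates without naming separate cultures, so p-values measure only the spread between these samples. Counting intervals and the floor of 3 counts cover counting error only. The tests were tried on simulated data first. The list of protease inhibitors other than the TIMPs is not reported here.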

Additional observations from a re-analysis of the deposited data

Results flagged for a closer look

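For 13 members, the change from parental to AfaR cells differed between FaDu and Cal27 by the interaction test (edgeR quasi-likelihood test over all 12 libraries), each value being the FaDu log2 change minus the Cal27 one. The change was more positive in Cal27 for MMP2 (-3.90, adjusted p = 0.000298), MMP13 (-4.12, adjusted p = 0.000219), MMP17 (-1.44, adjusted p = 0.0453), MMP19 (-2.68, adjusted p = 0.0242) and MMP24 (-2.32, adjusted p = 0.0252). The same held for ADAMTS7 (-2.73, adjusted p = 0.0123), ADAMTS12 (-3.44, adjusted p = 0.00918), ADAMTS14 (-4.61, adjusted p = 0.0189), TIMP1 (-1.83, adjusted p = 0.00014) and TIMP2 (-1.54, adjusted p = 0.00879). It was more positive in FaDu for MMP14 (1.51, adjusted p = 0.00552), MMP28 (3.62, adjusted p = 0.00824) and ADAMTS1 (1.23, adjusted p = 0.0455). In the fit of Cal27, MMP19, ADAMTS7 and ADAMTS14 had passed the filter only through AfaR. The interaction calls were kept without any 1 library for MMP2, MMP13, MMP14, MMP28 and TIMP1. Even so, MMP2 was -3.27 without FaDu parental replicate 2. MMP28 ran from 2.79 without FaDu AfaR replicate 2 to 4.28 without Cal27 AfaR replicate 1. ADAMTS12 was -2.44 without FaDu parental replicate 2 and ADAMTS14 was -3.44 without FaDu parental replicate 1, neither called, and both genes were near the limit of detection in FaDu. TIMP2 was -1.23 without FaDu parental replicate 2 (adjusted p = 0.0526) and ADAMTS7 was -2.42 without Cal27 AfaR replicate 1 (adjusted p = 0.0518). MMP17, MMP19, MMP24 and ADAMTS1 lost the call without any of several single libraries, with values from -1.67 to -1.10 for MMP17, -2.93 to -2.29 for MMP19, -2.37 to -2.20 for MMP24 and 0.83 to 1.40 for ADAMTS1 in those fits.

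For 8 members, the change from parental to ErlR cells differed between the lines by the same test. It was more positive in Cal27 for MMP1 (-4.42, adjusted p = 0.0153) and MMP10 (-4.15, adjusted p = 0.0145), which were -2.41 and -1.64 without Cal27 ErlR replicate 1 and not called, and which also missed the threshold without Cal27 parental replicate 2 (adjusted p = 0.0557 and 0.0524). It was more positive in FaDu for MMP7 (4.71, adjusted p = 0.000784), TIMP2 (1.99, adjusted p = 0.00357), MMP24 (2.66, adjusted p = 0.0211), ADAMTS1 (1.42, adjusted p = 0.0253), ADAMTS9 (5.03, adjusted p = 0.0270) and ADAMTS20 (5.72, adjusted p = 0.0420). MMP7 and TIMP2 were kept without any 1 library. The values for ADAMTS9 and ADAMTS20 rest on 1 and 0 counts in Cal27 ErlR, depend on the prior count and were each lost without most single libraries. MMP24 and ADAMTS1 were lost without several single libraries, with values from 2.20 to 2.72 and from 1.01 to 1.45 in those fits. Explanations were not tested.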

How the results depend on the processing

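No called member reversed its direction under any alternative run. Calls kept in every alternative that tested the gene numbered 4 of 12 in FaDu AfaR (MMP2, MMP7, MMP10 and MMP13), 2 of 4 in FaDu ErlR (MMP13 and ADAMTS1), 18 of 20 in Cal27 AfaR (all but MMP11 and ADAMTS13) and 7 of 11 in Cal27 ErlR (all but MMP1, MMP24, MMP25 and TIMP3). With 2 libraries in a group, leaving out 1 leaves a lone sample that is assumed to vary like the other groups.

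Requiring at least 10 counts in every library leaves fewer members to test. It lowered Cal27 AfaR from 18 higher and 2 lower to 7 and 0, Cal27 ErlR from 7 lower to 3, Cal27 AfaR against ErlR from 21 higher and 3 lower to 8 and 1, and the parental lines from 9 higher and 6 lower to 5 and 1. It also lowered the members whose AfaR change was smaller in FaDu from 10 to 3, and those whose ErlR change was larger or smaller in FaDu from 6 and 2 to 2 and 1. Without a filter, FaDu ErlR had 2 higher and 5 lower, Cal27 ErlR 11 lower and FaDu AfaR against ErlR 2 lower.

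Scaling by the spike-ins moved the median log2 fold change of all genes by 0.18 in FaDu AfaR, 0.49 in FaDu ErlR, -0.31 between FaDu AfaR and ErlR, 0.58 between the parental lines, and 0.15 and 0.47 in the AfaR and ErlR interactions. The share of all calls that were higher went from 75.4% to 96.1% in FaDu ErlR, from 74.8% to 37.0% between FaDu AfaR and ErlR, from 60.4% to 84.8% between the parental lines and from 69.1% to 93.8% in the ErlR interaction. Members called higher then numbered 6, with 4 lower, in FaDu ErlR and 3, with 1 lower, between FaDu AfaR and ErlR. TIMP2 was called in FaDu AfaR under this scaling (1.17).

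Leaving out each library in turn gave 2 to 6 members higher in FaDu AfaR (2, with 3 lower, without parental replicate 1), 1 to 3 lower in FaDu ErlR, 2 to 6 higher in Cal27 ErlR (2 without ErlR replicate 1), 1 to 4 higher and 0 to 1 lower between FaDu AfaR and ErlR, 1 to 3 lower between Cal27 AfaR and ErlR, 5 to 10 lower in the AfaR interaction, and 2 to 5 higher and 0 to 2 lower in the ErlR interaction.

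The replicate block, fitted although same-numbered samples did not deviate together from their group means (correlations from -0.173 to 0.105), gave 7 higher and 4 lower in FaDu AfaR, 1 and 3 in FaDu ErlR, 17 and 2 in Cal27 AfaR, 4 and 6 in Cal27 ErlR, 5 and 0 between FaDu AfaR and ErlR, 21 and 3 between Cal27 AfaR and ErlR, 9 and 6 between the parental lines, 3 and 10 in the AfaR interaction and 5 and 2 in the ErlR interaction. DESeq2 lost the calls of MMP24 and MMP25 in Cal27 ErlR, of MMP13 between FaDu AfaR and ErlR, and of MMP3 and MMP25 between the parental lines. The cause of these shifts was not tested.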
